A study of Mus musculus with 43 samples.

Results

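Npvf is the gene of a neuropeptide precursor of the RFamide family, and it was followed here across 4 hypothalamic nuclei and across feeding and fasting. It was found as the row of the expression table with the Ensembl identifier ENSMUSG00000029831, 1 of 10127 genes in the table. RNA was sequenced from the arcuate nucleus (ARC), dorsomedial hypothalamus (DMH), paraventricular nucleus (PVN) and ventromedial hypothalamus (VMH) of adult male mice of the strain labelled C57/BL6. Every mouse, fed or fasted, carried the paternal deletion labelled B6(Cg)-Snord116tm1.1Uta/J, and no wild-type library was analysed here. Mice had food ad libitum or were fasted for 24 h before the brain was taken. The 41 libraries came from 12 mice, with 4 fasted and 5 fed libraries in ARC, 5 and 6 in DMH, 5 and 5 in PVN, and 6 and 5 in VMH. Libraries carry the nucleus and the number of the mouse, so DMH-92 is the DMH of mouse 92.

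The product of Npvf is cut into the peptides RFRP-1 and RFRP-3, which end in arginine and an amidated phenylalanine and so give the family its name. In mammals the cell bodies that make these peptides lie in and around the DMH, and their fibres reach other hypothalamic areas. RFRP-3 is the mammalian counterpart of avian gonadotropin-inhibitory hormone. It acts on the receptors encoded by Npffr1 and, more weakly, Npffr2, and it is known for effects on the reproductive axis, on the response to stress and on feeding.

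Npvf lies on the minus strand at chr6:50650672-50654439 (GRCm38, GENCODE M21), in 3 exons, and no other annotated gene overlaps it. Its only annotated transcript has 812 bases and encodes 188 residues. Arginine, phenylalanine and glycine followed by a basic residue were encoded in frame at 2 places, both in exon 2. They are shown because such a glycine supplies the amide of an RFamide end and the basic residue marks the cleavage. Each line holds 12 codons and then, in capitals, the codons of arginine, phenylalanine, glycine and arginine, written on the coding strand from the GENCODE transcript. The first set of capitals is codons 93 to 96, and the line covers chr6:50652721-50652768. The second starts at codon 124, and its line covers chr6:50652628-50652675.
Npvf first RFamide end: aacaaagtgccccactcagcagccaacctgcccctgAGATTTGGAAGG
Npvf second RFamide end: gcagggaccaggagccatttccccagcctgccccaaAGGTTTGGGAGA
The codons of phenylalanine were the same at the 2 places, and those of the arginines and the glycine differed. Reads of both ends belong to the same transcript, so the expression table cannot tell RFRP-1 from RFRP-3.

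Values are CPM, the reads of a gene scaled to the same library total. The depth read from the steps between low values was 1.94 to 8.23 M reads a library (M, mega), with a median of 4.10 M. Every Npvf value was a whole number of reads at that depth. Of the DMH markers listed, 2 of 5 were measured, the transcription factor Hmx2 and the orphan receptor Gpr50, and both were above 0 in every DMH library. They do not mark DMH alone, since Gpr50 was 18.9 to 106 CPM in ARC against 105 to 229 in DMH, and Hmx2 was 0.304 to 4.56 CPM in ARC against 3.24 to 10.2 in DMH. The DMH libraries also held Hcrt and Pmch, the precursors of orexin and melanin-concentrating hormone, which define neurons of the lateral hypothalamus beside the DMH. Snord116 itself was not analysed here, so the deletion was not checked in these values.

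In DMH, Npvf was present in every library. Among the fasted mice it was 68.7 CPM in DMH-100, 69.7 in DMH-311, 101.2 in DMH-305, 109 in DMH-101 and 112 in DMH-86. Among the fed mice it was 56.5 CPM in DMH-127, 57.6 in DMH-125, 67.2 in DMH-111, 68.5 in DMH-313, 112 in DMH-308 and 225 in DMH-92. These values rest on 197 to 924 reads a library. The mean over DMH was 95.2 CPM ± 48.4 (SD, n = 11), and the median was 69.7 CPM. The highest library was 3.99 times the lowest, and DMH-92 alone was 2.01 times the next highest. Without DMH-92 the mean was 82.3 CPM ± 23.3 (SD, n = 10). In this bulk tissue, fewer Npvf neurons in a capture and less Npvf RNA per neuron cannot be told apart.

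Outside DMH the gene was at the edge of detection. In ARC the values ran from 0 to 0.456 CPM with a mean of 0.253 ± 0.176 (SD, n = 9), from 10 reads in 38.7 M. In PVN they ran from 0 to 0.476 CPM with a mean of 0.245 ± 0.187 (SD, n = 10), from 10 reads in 44.5 M. No ARC or PVN library held more than 2 reads, and 2 ARC and 3 PVN libraries held 0. In VMH the values ran from 0 to 6.30 CPM with a median of 0.368 and a mean of 1.13 ± 1.80 (SD, n = 11), from 51 reads in 44.9 M.

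**Figure D1:**
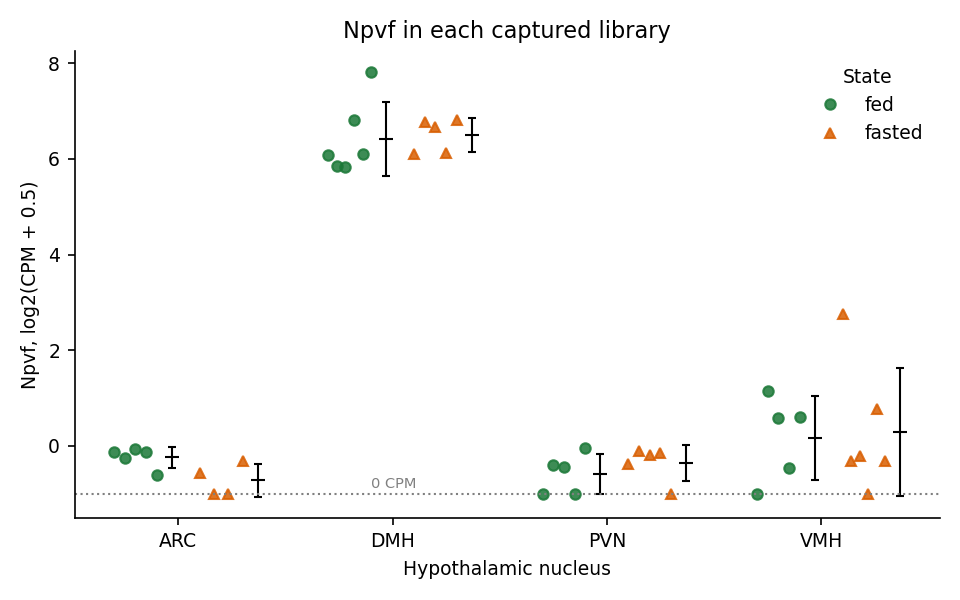
Npvf in each library as log2(CPM + 0.5), by nucleus and state, with the group mean ± SD beside the points and a dotted line at 0 CPM. All 11 DMH libraries lie above all 30 libraries of the other nuclei, and VMH-100 is the highest point outside DMH.

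The lowest DMH library, at 56.5 CPM, stood above the highest library of any other nucleus, at 6.30 CPM. Since Npvf was already known to be the gene highest in DMH relative to the other nuclei, this difference is a description and was not tested. The mean of log2(CPM + 0.5) was 6.68 higher in DMH than in the other nuclei, the first of all 10127 genes, before Hcrt at 6.26 and Pmch at 6.14. With the reads of each nucleus pooled, the DMH level was 358-fold that of ARC (95% exact interval 195 to 748) and 412-fold that of PVN (224 to 861). It was 81.6-fold that of VMH (61.9 to 110), or 128-fold (89.8 to 191) without VMH-100. These intervals cover counting error only, since amplification can give several reads from a single molecule.

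VMH was the only nucleus outside DMH with any library at 1 CPM or more. The fasted libraries were 0 CPM in VMH-311, 0.305 in VMH-101, 0.306 in VMH-86, 0.368 in VMH-305, 1.22 in VMH-85 and 6.30 in VMH-100. The fed libraries were 0 CPM in VMH-111, 0.226 in VMH-308, 0.9998 in VMH-127, 1.01 in VMH-313 and 1.73 in VMH-125. VMH-100 held 21 reads (95% exact interval 3.90 to 9.64 CPM), more than the rest of the fasted VMH libraries together. In VMH-100 the DMH markers were low, with Gpr50 at 1 read and Hmx2 at 0, and Hcrt was at 2 reads. Pmch was 33.9 CPM in VMH-100, above the VMH median of 26.7 CPM. In the other direction, VMH-86 had the highest Hcrt outside DMH, 11.9 CPM, with Npvf at 0.306 CPM. The part of DMH tissue at the edge of a VMH capture in these values was not tested.

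Below DMH came VMH, ARC and PVN in that order of means, and the ranges of their libraries overlapped. Outside DMH, 0 ARC, 0 PVN and 4 VMH libraries reached 1 CPM. The limma tests among the 3 nuclei therefore rest on values near the floor and do not show that the levels are alike. In the limma fit over all libraries, ARC was 0.69 ± 0.37 (SE) below VMH on the log2 scale (adjusted p = 0.181) and PVN was 0.70 ± 0.36 below VMH (adjusted p = 0.148). ARC and PVN differed by 0.02 ± 0.37 (adjusted p = 0.988), with a 95% interval of -0.74 to 0.77. The share of all genes with an adjusted p under 0.1 was 30.3% between ARC and VMH, 16.7% between ARC and PVN, and 31.3% between PVN and VMH, and nothing is read from Npvf against these shares. Over the alternatives, the adjusted p ran from 0.0668 to 0.372 for ARC against VMH and from 0.0765 to 0.350 for PVN against VMH. Exact permutation tests over the libraries gave p = 0.0834 for ARC against VMH, 0.0624 for PVN against VMH and 0.908 for ARC against PVN (2-sided, adjusted over the 3 pairs 0.125, 0.125 and 0.908). Permutation tests of pairs of nuclei left mouse and batch aside, although many of the libraries share a mouse. Without VMH-100, VMH stood 0.43 above ARC (exact permutation p = 0.137) and 0.45 above PVN (p = 0.113).

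Whether a 24-h fast altered Npvf was asked in DMH, where the gene is expressed. Fasted mice averaged 92.1 CPM ± 21.3 (SD, n = 5) and fed mice 97.8 CPM ± 65.6 (SD, n = 6). All 5 fasted libraries lay within the range of the fed group, which held both the lowest and the highest library. In the limma fit with batch, the fasted minus fed difference was 0.17 ± 0.25 (SE) on the log2 scale, a 1.12-fold difference with a 95% interval of 0.785 to 1.61 (adjusted p = 0.940). Over the alternatives, the adjusted p ran from 0.711 to 0.998. The same fit called 1 of 9751 genes in DMH at an adjusted p under 0.1, or 0.0103%, and 646 genes had an unadjusted p under 0.05. The exact permutation test over all 462 ways to assign the states gave p = 0.866 for a difference of 0.08 without batch (2-sided), where the smallest p the design allows is 0.00216. On the linear scale the sign turned, with a fasted minus fed difference of -5.69 CPM (exact permutation p = 0.939).

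**Figure D2:**
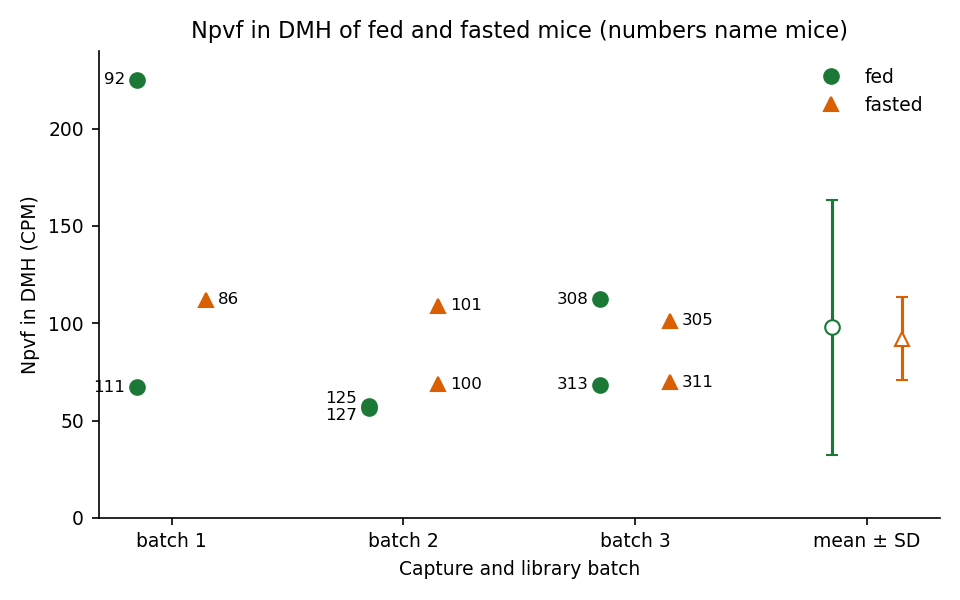
Npvf CPM in each DMH library by capture and library batch and by state, with mouse numbers beside the points and the mean ± SD of each state at the right. The fasted mean was higher only in batch 2, and fed mouse 92 in batch 1 is the highest at 225 CPM.

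The mice were captured and their libraries prepared in 3 batches. On the log2 scale, fasted libraries were 0.60 above fed libraries in batch 2, while the differences in batches 1 and 3 were -0.13 and -0.06. In batch 1 this compared 1 fasted with 2 fed libraries, and in the others 2 with 2. The sign in batch 1 rests on fed DMH-92 at 225 CPM, since fasted DMH-86 at 112 CPM lay above fed DMH-111 at 67.2 CPM. An exact permutation of the states within batches gave p = 0.833.

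The size of the difference depended on single libraries. Without DMH-92 it rose to 0.36 ± 0.20 (limma adjusted p = 0.748; exact permutation p = 0.143). It was 0.01 without fasted DMH-101 (adjusted p = 0.997) and 0.01 without fed DMH-111 (adjusted p = 0.997). With log2 depth as a further covariate it was 0.87 ± 0.44 (adjusted p = 0.711). Depth ran from 2.65 to 8.23 M in DMH, and the deepest library, DMH-308, was fed, so depth and state were partly bound together. No setting took Npvf past the threshold in DMH.

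**Figure D3:**
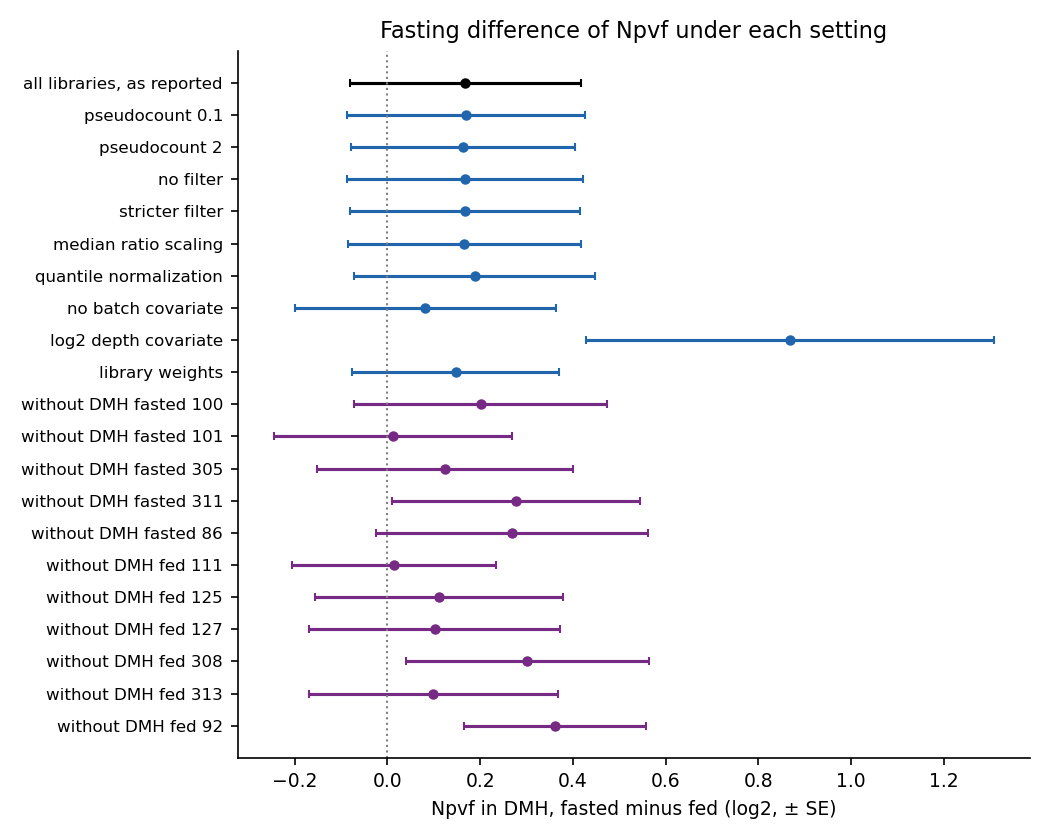
The fasted minus fed difference of Npvf in DMH on the log2 scale, with its SE, for all libraries (black), other settings (blue) and with each library left out (purple). Every point lies above 0, the lowest being 0.01 without DMH-101 and the highest 0.87 with depth as a covariate.

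Npvf varied more between DMH libraries than most genes of its level. After state and batch were fitted, its SD was 0.59 on the log2 scale. Among the 2155 genes with a DMH mean within 2-fold of its own, the median SD was 0.27 and 1.25% had a larger one. Without DMH-92 the SD of Npvf was 0.39. Because limma draws the variance of each gene towards the common trend, the SE given for Npvf is smaller than its own spread alone would give, and the permutation tests do not share this.

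In ARC, PVN and VMH, Npvf reached 1 CPM in fewer libraries than the smaller group holds, so it was not kept in the fit of each nucleus. The means were 0.121 CPM ± 0.148 (SD, n = 4) in fasted and 0.358 ± 0.119 (SD, n = 5) in fed ARC. They were 0.297 CPM ± 0.178 (n = 5) and 0.194 ± 0.200 (n = 5) in PVN, and 1.42 CPM ± 2.43 (n = 6) and 0.793 ± 0.692 (n = 5) in VMH. Without VMH-100 the fasted VMH mean was 0.440 CPM ± 0.459 (SD, n = 5), below the fed mean. The fasted ARC libraries held 2 reads in all and the fed ARC libraries 8. In the limma fit over all libraries, the fasted minus fed difference was -0.44 ± 0.55 (SE) in ARC (adjusted p = 0.897), 0.21 ± 0.51 in PVN (adjusted p = 0.965) and 0.12 ± 0.49 in VMH (adjusted p = 0.990). Without the filter, the fits of each nucleus gave adjusted p values of 0.859, 0.933 and 0.983. These fits kept Npvf although it lay near the floor in the 3 nuclei, and the fit over all libraries has 1 spread for DMH and the others, so they do not show that fasting left it unaltered there. By the model of each nucleus, the difference moved from 0.19 to -0.27 in VMH without VMH-100 and to -0.16 without VMH-111 (limma adjusted p = 0.991), and from 0.21 to 0.04 in PVN without PVN-308. Over all 41 libraries, the limma F-test of whether the fasting difference varied between nuclei gave an adjusted p of 0.995 for Npvf. This F-test has the same limit, since Npvf was near the floor outside DMH, and it does not show that the nuclei responded alike. That test called 0 of 10121 genes (0%), while 522 had an unadjusted p under 0.05.

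Across mice, the DMH values were compared with those of each other nucleus. Over the mice with both libraries, Pearson's r with DMH was -0.15 for ARC (n = 9, permutation p = 0.696), -0.24 for PVN (n = 10, permutation p = 0.480) and -0.41 for VMH (n = 10, permutation p = 0.245). Spearman's rho was -0.43, -0.07 and -0.40 (permutation p = 0.250, 0.863 and 0.249). Adjusted over the 3 relations, p was 0.696 for each r and 0.375, 0.863 and 0.375 for the rho values. Without the 2 mice farthest from the DMH median, those of DMH-308 and DMH-86, r was -0.76 for ARC, 0.42 for PVN and -0.32 for VMH. After state and batch were removed, r was 0.82 for ARC, -0.51 for PVN and -0.28 for VMH, so the sign for ARC depended on this step. The r values without 2 mice and after this step were not tested. The values outside DMH rest on 0 to 21 reads a library, and each batch held too few mice for a value of its own.

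DMH-92, the library with most Npvf, stood apart in other genes too. Its Hcrt was 46.7 CPM, below the 54.5 to 268 CPM of the other DMH libraries. Of the DMH markers, Gpr50 was 112.6 CPM against 105 to 229, while Hmx2 was 10.2 CPM, above the 3.24 to 9.81 of the other libraries. Syt1, the only neuron marker measured (1 of 6), was 450 CPM against 562 to 708. The summed markers of oligodendrocytes (6 of 6 measured) were 1578 CPM against 455 to 1034, those of their precursors (2 of 2) 108 against 27.6 to 78.2, those of microglia (4 of 6) 83.3 against 31.4 to 81.5 and those of endothelium (5 of 6) 175 against 99.9 to 153. Astrocyte markers (3 of 6) summed to 227 CPM against 146 to 234. No measured marker of these cell types was at 0 in any DMH library. Npy, a marker of the ARC, was 33.4 CPM in DMH-92 against 0.831 to 6.12. By these sums, DMH-92 was the highest DMH library for markers of oligodendrocytes, precursors, microglia and vessels. It had the least Syt1 and the most Npvf. The single markers did not all follow their sums. Pdgfra, Cldn11, Tmem119, Kdr and Ly6c1 each had their highest DMH value in a fasted library, not in fed DMH-92. The microglia sum was only just above the next library. A column named for ARC of this mouse was not used, since the labels give PVN instead. The part of these differences in the Npvf value was not tested.

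**Figure D4:**
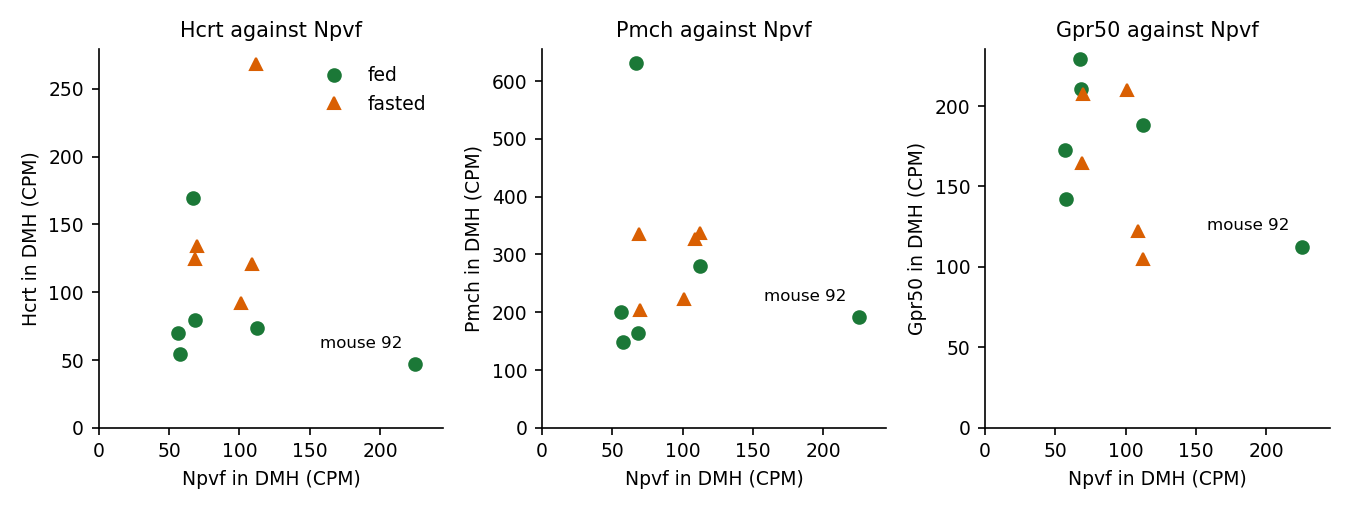
Hcrt, Pmch and Gpr50 (CPM, vertical axes) against Npvf (CPM, horizontal axes) in the 11 DMH libraries, fed and fasted. DMH-92 lies far to the right at 225 CPM of Npvf with the lowest Hcrt of the 11, 46.7 CPM.

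The genes whose levels were most like Npvf over the 41 libraries were those of the DMH captures. Among 7691 genes with a DMH mean of at least 5 CPM, Pearson's r on log2(CPM + 0.5) was highest for Hcrt (0.89), Pmch (0.86), Parpbp (0.85), the neuropeptide S receptor gene Npsr1 (0.79) and the nuclear receptor gene Rorb (0.78). Synpr (0.77), Prdm13 (0.74) and Cntnap4 (0.74) followed. Parpbp overlaps Pmch on the opposite strand, and the use of strand in counting is not given in the sources used here, so reads of the overlap cannot be assigned to either gene. Other named genes overlap a gene on the opposite strand, among them Hmx2 (Fgfr2), Kiss1r (R3hdm4), Qrfpr (Gm43255), Lrtm2 (Cacna2d4), Acp1 (Alkal2) and 4930539J05Rik (Ube2d3), with the same limit. These values describe libraries that share mice and nuclei, and they mostly follow the step between DMH and the rest.

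Within DMH, the genes nearest to Npvf over all libraries had r values of either sign. After state and batch were removed, r over the 11 DMH libraries was -0.87 for Rorb, -0.86 for Prdm13, -0.76 for Hcrt, -0.38 for Parpbp, -0.32 for Pmch, -0.32 for Cntnap4, -0.17 for Npsr1 and 0.32 for Synpr. Without DMH-92 it was -0.65 for Rorb, -0.89 for Prdm13, -0.14 for Hcrt, 0.24 for Parpbp, 0.29 for Pmch, -0.25 for Cntnap4, -0.61 for Npsr1 and 0.28 for Synpr. The DMH markers Gpr50 and Hmx2 had r values of -0.72 and 0.46, or -0.62 and 0.32 without DMH-92. The gene with the highest r within DMH was the nuclear noncoding RNA Neat1 (0.98, and 0.97 without DMH-92), followed by Tmem86b (0.96), Vgll4, Ebf4 and Cpne8. The lowest was Lrtm2 (-0.97), followed by Acp1, 4930539J05Rik, Mrpl50 and Snx1. These are the extremes of many genes over few libraries and are given as a description.

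Fasting differences of the neighbouring peptide genes in DMH were compared on the same scale. Hcrt averaged 148 CPM ± 69.0 (SD, n = 5) in fasted and 82.2 ± 44.3 (n = 6) in fed DMH, a log2 difference of 0.97 ± 0.24 (limma adjusted p = 0.497). Pmch differed by 0.34 ± 0.23 (adjusted p = 0.848). Neither passed the threshold. Per kilobase of exon, the mean DMH level of Npvf was 117 CPM, that of Hcrt 150, that of Pmch 369 and that of Penk, the enkephalin precursor gene, 77.5.

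Of the 11 genes listed for RFamide peptides and their receptors, 5 were in the table. Npvf was the only peptide gene among them, and Npff, Kiss1, Prlh, Qrfp, Npffr1 and Qrfprl were not analysed here. The receptors measured were those for neuropeptide FF (Npffr2), kisspeptin (Kiss1r), prolactin-releasing peptide (Prlhr) and QRFP (Qrfpr). In DMH the mean of Npffr2 was 1.76 CPM ± 1.40 (SD, n = 11), below the 2.98 ± 2.07 (n = 9) of ARC. It was 0.362 CPM in both PVN and VMH, where 5 of 10 and 6 of 11 libraries were at 0. Npffr2 was detected in libraries of all 4 nuclei, at no more than 6.33 CPM in any library.

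Qrfpr had the clearest pattern among the receptors. It was 9.28 to 37.7 CPM in VMH (median 14.2, n = 11), 0.170 to 2.63 in DMH (median 1.25, n = 11), 0 to 9.22 in ARC (median 1.82, n = 9) and 0 to 5.71 in PVN (median 2.12, n = 10). The lowest VMH library stood above the highest library elsewhere, by a narrow margin over ARC-313. Against the mean of the other nuclei, Qrfpr was 1.35 ± 0.32 lower in DMH on the log2 scale (limma adjusted p = 0.00294), a mean that holds VMH.

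Of the 4 receptor genes, 1 was lower and 0 were higher in DMH than in the mean of the other nuclei, where 6.79% of all genes tested were lower and 8.2% higher. Npffr2 (0.61 ± 0.35, adjusted p = 0.291), Prlhr (0.84 ± 0.36, adjusted p = 0.137) and Kiss1r (-0.25 ± 0.34, adjusted p = 0.727) did not pass. The median difference of all 4 was 0.18, beside 0.02 over all genes. Between fasted and fed DMH, limma called 0 of the 4, and 0 had an unadjusted p under 0.05, where 0.0103% and 6.62% of all genes did so.

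**Figure D5:**
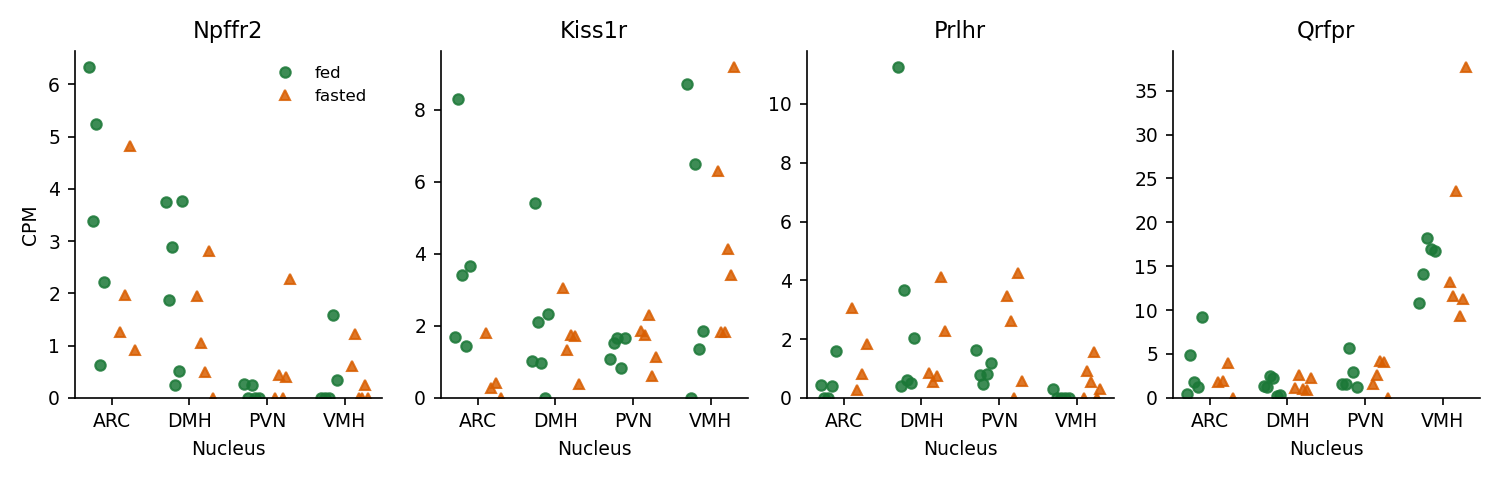
CPM of Npffr2, Kiss1r, Prlhr and Qrfpr in each library, by nucleus and state, with an axis of its own for each gene. Qrfpr is highest in VMH, where all 11 libraries reach 9.28 CPM or more, and the other receptors stay under 12 CPM in every library.

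Npvf needs cleavage, trimming and amidation to give its peptides. Of 17 genes listed for prohormone processing and secretory granules, 8 were measured, and in DMH 0 were higher and 2 lower than in the mean of the other nuclei, beside 8.2% and 6.79% of all genes. The lower ones were Pcsk6, a proprotein convertase (-1.17 ± 0.26, adjusted p = 0.00152), and Pcsk1n, an inhibitor of prohormone convertase 1 (-0.26 ± 0.06, adjusted p = 0.00409). Carboxypeptidase E, which trims basic residues after cleavage, was among the abundant genes of DMH, at 1444 CPM ± 310.7 (SD, n = 11; Cpe, -0.02 ± 0.05, adjusted p = 0.887). The amidating enzyme gene Pam was not analysed here. The limma test of fasting in DMH called 0 of these 8, beside 0.0103% of all genes. Vgf, a granule protein gene, was the 1 with an unadjusted p under 0.05 (0.49 ± 0.21, adjusted p = 0.727), beside 6.62% of all genes.

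Among the 8 of 28 listed hypothalamic peptide genes that were measured, 4 were higher in DMH and 2 lower than in the mean of the other nuclei, beside 8.2% and 6.79% of all genes. Hcrt (6.27 ± 0.36), Pmch (6.14 ± 0.25), the cholecystokinin gene Cck (2.92 ± 0.36) and Penk (0.56 ± 0.11) were the higher ones, and Npy (-2.52 ± 0.30) and the vasopressin gene Avp (-3.16 ± 0.25) the lower, each with a limma adjusted p under 0.1. Their DMH fasting test called 0 of 8, with 2 (Hcrt and Crh) at an unadjusted p under 0.05, beside 0.0103% and 6.62% of all genes. Against single nuclei the picture was narrower. Penk averaged 126.7 CPM in DMH, below the 174 CPM of PVN. Npy had a median of 1.51 CPM in DMH, 2.21 in PVN, 3.00 in VMH and 326 in ARC. Its DMH mean was 5.38 CPM, or 2.58 ± 2.06 (SD, n = 10) without DMH-92. Avp was 1.70 CPM in DMH against 1.88 in VMH, 3.95 in ARC and 800.4 in PVN. The median difference of the list between DMH and the other nuclei was 0.24.

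Of 16 genes listed for reproduction and photoperiod, the setting in which RFRP peptides are best known, 4 were measured. Of these, 1 was higher and 1 lower in DMH than in the mean of the other nuclei, beside 8.2% and 6.79% of all genes. Gpr50, a relative of the melatonin receptors, was 4.71 ± 0.26 higher. It was also among the listed DMH markers, so its difference is a description. The progesterone receptor gene Pgr was 0.75 ± 0.17 lower (limma adjusted p = 0.00187). Pgr averaged 22.9 CPM in DMH, 22.5 in PVN, 40.1 in VMH and 56.6 in ARC. Kiss1r, given above, did not pass. Of 13 listed receptors for metabolic signals, 9 were measured, 0 were higher in DMH and 4 were lower than in the mean of the other nuclei, again beside 8.2% and 6.79% of all genes. These were the melanocortin receptor genes Mc3r (-1.12 ± 0.30) and Mc4r (-0.97 ± 0.33), the neuropeptide Y receptor gene Npy1r (-1.16 ± 0.14) and the orexin receptor gene Hcrtr2 (-0.64 ± 0.22). Mc3r was nevertheless higher in DMH (5.32 CPM) than in PVN (1.45), and Mc4r was 2.29 CPM in DMH, 2.09 in ARC, 2.88 in VMH and 10.6 in PVN. By the limma test of fasting in DMH, 0 of the 4 genes of the first list and 0 of the 9 of the second passed, and 0 and 2 had an unadjusted p under 0.05, beside 646 of all 9751 genes.

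The inhibitory markers Slc32a1 (2.73 ± 0.20) and Gad1 (2.66 ± 0.14) were higher in DMH than in the mean of the other nuclei, and the excitatory marker Slc17a6 was lower (-0.61 ± 0.07), each with a limma adjusted p under 0.1. ARC was close to DMH, with Gad1 at 217 CPM ± 32.6 (SD, n = 9) against 228 ± 34.2 (n = 11) and Slc32a1 at 101.02 CPM against 132, while Gad1 was 20.7 CPM in PVN and 11.3 in VMH. Slc17a6 was 188 CPM in DMH, above the 118 CPM of ARC and below the 358 of PVN and 581 of VMH. The neuron marker Syt1 was also higher by this test (0.56 ± 0.06, adjusted p = 8.1e-11). Its mean of 617 CPM in DMH was nevertheless close to the 622 of VMH, and above the 371 of ARC and 327 of PVN. Of 3 astrocyte markers, Gja1 was higher (0.45 ± 0.10, adjusted p = 0.00149), while Aldh1l1 (0.17, adjusted p = 0.758) and S100b (0.22, adjusted p = 0.150) did not pass. Of 3 tanycyte and ependymal markers, Col23a1 was lower (-0.71 ± 0.28, adjusted p = 0.0934), while Crym (-0.79, adjusted p = 0.193) and Foxj1 (-0.70, adjusted p = 0.231) did not pass. Col23a1 averaged 7.75 CPM in DMH, 5.57 in PVN, 8.06 in VMH and 34.2 in ARC. Of the measured markers of oligodendrocytes (6), precursors (2), microglia (4) and endothelium (5), 0 were called, beside 8.2% of all genes higher and 6.79% lower, and so few genes do not set these cell types apart from that background. These markers describe the captured tissue and do not say which neurons held Npvf.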

How the data were processed

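RNA of laser-captured nuclei was amplified (Ovation RNA-Seq V2), made into libraries (Encore Rapid DR) and sequenced single-end. The submitters' processing notes name CASAVA 1.7, TopHat2 2.0.11, Cufflinks 2.2.1, edgeR and limma, with GRCm38. The counting program is not given in the sources used here. The authors left out outlier libraries and deposited CPM per Ensembl gene, relative to the whole library. Of the columns, 41 matched a sample, 2 matched none (named for ARC of mice 85 and 92, while the labels give PVN of these mice) and were not used, and 2 of 43 samples were not analysed here. GENCODE M21 gave a symbol for 9891 of 10127 genes. In each library 96.9% to 98.7% of low values were whole reads within 0.05, but not all, so no count test was run.

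Fasted and fed libraries of a nucleus were compared on log2(CPM + 0.5) with limma 3.58.1 (R 4.3.3; lmFit, eBayes with trend, batch as covariate) for genes at 1 CPM or more in at least the number of libraries of the smaller group. Such fold changes understate those of low genes. A fit over 41 libraries compared nuclei. P values were adjusted by Benjamini-Hochberg over all genes, with a threshold of 0.1. Single values were tested by exact permutation, and correlations by 100000 permutations (Python 3.11.15, scipy 1.17.1). The fits were tested on simulated data. Mouse numbers in the titles tie libraries of different nuclei to 1 animal. The correlation of libraries of one mouse was -0.00325, and fed and fasted mice were different animals. The gene, the gene lists and the tests were chosen with earlier results of these data known. Named genes were Npvf, the listed genes, the 8 genes with the highest r over all libraries and the 5 highest and 5 lowest within DMH. The values of 1 listed gene are not reported here. Alternatives were other pseudocounts, filters, scalings, covariates and weights, the mouse block and leaving out each library.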

Additional observations from a re-analysis of the deposited data

Results flagged for a closer look

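In each group of 4 to 6 libraries, the highest or lowest value was compared with its nearest neighbour. For Npvf and the 8 genes set beside it, 16 of 72 groups held a library that stood apart by Dixon's criterion. All 16 stood apart on the high side. For normally distributed values, chance gives a library apart in about 1 in 20 groups, and CPM values need not be so distributed. That rate does not apply to groups mostly at 0, where 1 or 2 reads meet the criterion by themselves, as for Hmx2 in PVN-127 and VMH-101 and Prlhr in VMH-111. For Npvf these were fed DMH-92, at 225 CPM with 112 next, and fasted VMH-100, at 6.30 CPM with 1.22 next.

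Hcrt stood apart at 10.9 CPM in fasted ARC-86, 3.80 in fed ARC-111, 268 in fasted DMH-86, 169 in fed DMH-111 and 11.9 in fasted VMH-86. Pmch stood apart at 631 CPM in fed DMH-111 and 3.18 in fasted PVN-100. Among the receptors, Npffr2 stood apart at 2.27 CPM in fasted PVN-86 and 1.58 in fed VMH-308, and Prlhr at 1.59 in fed ARC-313, 11.2 in fed DMH-111 and 0.291 in fed VMH-111. Hmx2 stood apart at 0.238 CPM in fed PVN-127 and 0.609 in fasted VMH-101, in groups whose other libraries were at 0. In DMH-111, where Hcrt, Pmch and Prlhr stood apart, Npvf was 67.2 CPM.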

How the results depend on the processing

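The fasting difference of Npvf in DMH kept its sign and stayed short of the threshold under all 22 limma alternatives, from 0.01 to 0.87 on the log2 scale, but turned to -5.69 CPM in the permutation test on the linear scale. The 95% limma interval reaches a 1.61-fold rise. With the mouse number as a replicate block in the fit over all libraries, where the pairing can enter, the DMH difference was 0.07 (adjusted p = 0.995), and the block changed no call. ARC minus PVN turned to -0.0066 without batch and -0.078 with library weights, and ran from -0.068 to 0.11 with each library left out. ARC minus VMH passed with library weights (-0.85, adjusted p = 0.0668) and ran from -0.84 to -0.45 with each library left out, passing without fed VMH-111 (adjusted p = 0.0968). PVN minus VMH passed with library weights (-0.78, adjusted p = 0.0790) and ran from -0.85 to -0.45, passing without fed VMH-111 (adjusted p = 0.0765) and without fasted VMH-311 (adjusted p = 0.0822). Both left-out libraries were at 0 CPM. Npvf was near the floor outside DMH, so these passes rest on such values and nothing is read from them. The fasting difference in the fit of each nucleus moved with the pseudocount in ARC (-1.20 with 0.1 and -0.15 with 2, against -0.46) and in PVN (0.56 with 0.1 and 0.07 with 2, against 0.21). In VMH it was 0.64 with log2 depth as a covariate, against 0.19. With each library left out it ran from -0.27 to 0.61 in VMH and from 0.04 to 0.34 in PVN. The r of DMH with ARC turned to 0.82 after state and batch were removed, and that with PVN to 0.42 without 2 mice. The count of receptors called in DMH was 1, or 1 to 2 with each library left out, the second being Prlhr without fed DMH-125 (adjusted p = 0.0973). Qrfpr was called under all 50 alternatives (adjusted p = 0.000546 to 0.0255). The causes were not tested. The permutation tests of pairs of nuclei, the permutation tests, means and r values without DMH-92 or VMH-100 and the leaving out of libraries for the receptors were added after the data were seen.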
